A study of Homo sapiens with 22 samples.

Results

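GATA1 and GATA2 are the genes of 2 related zinc-finger transcription factors, and the regions described here are those of the deposited count tables that overlapped either gene's RefSeq span (GRCh38) extended by 100 kb on each side. This rule took 178 of the 409446 regions in the 4 tables, 83 around GATA1 on chrX:48786590-48794311 and 95 around GATA2 on chr3:128479422-128493201. GATA1 is transcribed from the plus strand. GATA2 is transcribed from the minus strand, and the annotation used here gives it start sites at 128493201 and 128488530. Distances below run along transcription from the first start site, so a negative distance is upstream.

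The cells were K562, a human leukemia line labelled wild type (WT), given 25 nM of the phorbol ester PMA, which drives the line toward a megakaryocyte-like state. In CUT&RUN, a nuclease tethered by an antibody releases the DNA beside a bound protein or histone mark. Antibodies against H3K27ac, Jun and CTCF were each used at 0, 6 and 72 h, and an antibody against Rad21 at 0 and 72 h, which gave 22 libraries in 11 groups of 2. Fixation was in 1% formaldehyde, over 10 min. The 0 h libraries are the untreated reference of both later times, so the comparisons at 6 and 72 h share them and are given side by side. In such bulk libraries fewer cells with a signal and less signal per cell cannot be told apart. The line is a single leukemic line, no vehicle-treated culture is labelled, and nothing in the labels says whether 2 replicates were separate cultures, so p-values measure only the spread between these libraries.

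GATA1 is required for red cell and megakaryocyte differentiation, and it binds DNA with the cofactor FOG1 and with a complex of TAL1, LMO2 and LDB1. GATA2 acts earlier, in stem and progenitor cells, and in erythroid cells GATA1 takes over sites that GATA2 held, including sites in the GATA2 gene itself. H3K27ac, acetylation of lysine 27 of histone H3, marks active promoters and enhancers. Jun is a subunit of AP-1, a transcription factor that responds to phorbol esters. CTCF binds insulator sites, and Rad21 is a subunit of cohesin, the ring complex that holds chromatin loops.

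The libraries held 12634261 to 27266241 region counts with H3K27ac, 4766421 to 18883962 with Jun, 2553677 to 6068421 with CTCF and 4398797 to 7285286 with Rad21. Mitochondrial counts made up 24% and 27.7% of the 2 Jun libraries at 0 h and 9.07% and 8.58% at 72 h, and their part in the results was not tested. As a check of the labelled cell type, the erythroid genes HBG1, TFRC, EPOR and ALAS2 each had an H3K27ac peak in both 0 h libraries. Fold changes are relative to the TMM factors of edgeR. With them the median log2 fold change of all H3K27ac regions at 72 against 0 h was 0.19, against 0.42 with total counts and 0.79 with shared-peak scaling, whose factors come from the regions where all libraries of the antibody had a peak. For Jun the same medians were 0.17, 0.73 and 0.96.

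The 250 bases before each start site are shown because the acetylated regions of both genes lay to the side of the first start, not on it. They come from the RefSeq promoter table of GRCh38.p14, written 5′ to 3′ along transcription, with CACCC, or GGGTG for the other strand, in capitals. They span chrX:48786340-48786589 (plus strand), chr3:128493202-128493451 (minus strand) and chr3:128488531-128488780 (minus strand).
GATA1 start: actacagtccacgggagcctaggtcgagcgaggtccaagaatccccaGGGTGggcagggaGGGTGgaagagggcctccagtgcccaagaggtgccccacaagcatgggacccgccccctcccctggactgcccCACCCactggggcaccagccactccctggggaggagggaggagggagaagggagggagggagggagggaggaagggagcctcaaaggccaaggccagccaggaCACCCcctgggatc
GATA2 first start: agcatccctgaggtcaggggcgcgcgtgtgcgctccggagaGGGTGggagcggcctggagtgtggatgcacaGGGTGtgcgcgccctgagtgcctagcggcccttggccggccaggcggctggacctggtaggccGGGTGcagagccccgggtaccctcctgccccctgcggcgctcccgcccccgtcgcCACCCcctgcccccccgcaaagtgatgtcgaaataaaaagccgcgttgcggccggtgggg
GATA2 second start: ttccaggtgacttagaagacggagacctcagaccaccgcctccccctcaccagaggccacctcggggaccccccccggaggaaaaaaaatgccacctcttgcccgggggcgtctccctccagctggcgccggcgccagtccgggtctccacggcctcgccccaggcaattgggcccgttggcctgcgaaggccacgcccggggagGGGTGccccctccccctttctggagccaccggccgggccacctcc
CACCC, the core of sites for KLF and SP family factors, occurred 4 times in the GATA1 stretch, 4 times in that of the GATA2 first start and once in that of the second start. Of 35116 RefSeq promoters, 54.7% held it in their 250 bases. None of the 3 stretches held a GATA match (AGATAA or TGATAA, and likewise AGATAG or TGATAG, on either strand, found in 22.3% of promoters) or an AP-1 match (TGANTCA, found in 6.57%), which says only that these letters are absent from these windows. Their GC content was 68.4%, 72.8% and 71.2%, against a median of 58% over all promoters. No H3K27ac, Jun, CTCF or Rad21 region overlapped the stretches before the GATA1 start and the GATA2 first start, and an H3K27ac region overlapped the one before the GATA2 second start.

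Acetylation around GATA1 fell at 6 h and partly came back by 72 h. Over the 10 H3K27ac regions that overlapped the gene or the 10 kb on either side, summed CPM (counts scaled to library size with the TMM factors) were 347 and 338 in the untreated libraries, 142 and 171 after 6 h, and 207 and 218 after 72 h. The 3 times did not overlap, and the 6 h libraries were lowest. The means were 342 ± 5.77 (SD, n = 2), 156 ± 20.1 and 212 ± 7.58 CPM. Only 3 of the 10 overlapped the gene span itself, with mean sums of 99.0, 51.75 and 75.2 CPM at 0, 6 and 72 h. The regions chrX:48799676-48801637 and chrX:48801709-48803075 overlapped the HDAC6 span, and are also part of the HDAC6 sums given below. By edgeR's quasi-likelihood test, adjusted over all regions of the antibody, all 10 were lower at 6 than at 0 h, 9 were lower at 72 than at 0 h, and 7 were higher at 72 than at 6 h. Of all H3K27ac regions tested, 58.6%, 81.5% and 63.8% were called in these comparisons, in either direction. With shared-peak scaling, 9 were lower at 6 h, but 2 were lower and 1 was higher at 72 against 0 h. The calls at 6 h mostly held under that scaling, and most of those at 72 against 0 h did not.

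The 3 regions just upstream of GATA1, named after their values were seen, showed this course. They lie within a few kilobases before the start, where an enhancer of the gene is known in mice. At chrX:48784167-48784852 (−2.1 kb), the 0 h libraries had 34.2 and 33.8 CPM, the 6 h libraries 7.84 and 9.45, and the 72 h libraries 15.4 and 18.4. No libraries of different times overlapped, and the log2 fold change was −1.96 at 6 h (edgeR adjusted p = 5.1e-12), −1.01 at 72 h (SE 0.122, adjusted p = 3.84e-08) and 0.96 from 6 to 72 h (adjusted p = 1.87e-06). At chrX:48782306-48782895 (−4.0 kb) the mark fell by 1.75 on the log2 scale at 6 h and by 0.83 at 72 h, and at chrX:48782994-48783574 (−3.3 kb) by 1.39 and 0.82. These last 2 falls at 72 h were not called with shared-peak scaling, where they were 0.23 and 0.21.

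The region nearest the GATA1 start, chrX:48787043-48787816, has its midpoint 0.8 kb inside the gene. It had 24.5 and 25.4 CPM untreated, 13.1 and 18.1 after 6 h, and 13.7 and 13.7 after 72 h. Both later times lay below 0 h and overlapped each other. The log2 fold change was −0.66 at 6 h (edgeR adjusted p = 0.000196) and −0.86 at 72 h (SE 0.133, adjusted p = 1.88e-06). With shared-peak scaling, the latter was −0.26 (adjusted p = 0.0615). At the 3′ end of the gene, chrX:48794204-48795862 had 40.2 and 44.8 CPM untreated, 15.3 and 19.1 after 6 h, and 35.9 and 37.7 after 72 h. This region fell by 1.29 on the log2 scale at 6 h (edgeR adjusted p = 1.34e-09) and rose by 1.08 from 6 to 72 h (adjusted p = 2.27e-08). Its 72 h libraries stayed below the 0 h libraries without a call (−0.21, adjusted p = 0.0877). It was called lower with the replicate block (adjusted p = 0.0481), without replicate 1 at 6 h (adjusted p = 0.0405) and without replicate 2 at 6 h (adjusted p = 0.0248), and the sign turned with shared-peak scaling (0.40, adjusted p = 0.000469).

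Farther upstream, 2 regions stayed low. At chrX:48778237-48779028 (−8.0 kb) the 0 h libraries had 26.7 and 26.1 CPM, the 6 h libraries 6.23 and 7.33, and the 72 h libraries 5.61 and 6.45. The later times overlapped each other far below 0 h, with log2 fold changes of −1.95 at 6 h and −2.13 at 72 h (SE 0.141, edgeR adjusted p = 4.24e-13). At chrX:48765210-48765794, in the span of GLOD5 (−21.1 kb), the mark fell from 9.71 and 8.38 CPM to 2.90 and 3.02 at 72 h (log2 fold change −1.61, adjusted p = 6.32e-08). Both calls held under every alternative run.

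Other stretches of the GATA1 window gained the mark. The largest gains that met the rule were at chrX:48813204-48814151 in the span of HDAC6, a deacetylase of the cytoplasm, and at chrX:48700959-48701542 in the span of SUV39H1, a histone methyltransferase. The HDAC6 region (27.1 kb) had 1.65 and 1.58 CPM untreated, 2.17 and 2.41 after 6 h, and 6.73 and 6.23 after 72 h. Its rise of 2.00 on the log2 scale at 72 h (SE 0.247, edgeR adjusted p = 5.54e-08) set the 72 h libraries apart from the rest. The SUV39H1 region (−85.3 kb) rose by 1.14 at 72 h (SE 0.203, adjusted p = 1.64e-05). At 6 h it was called lower (−0.62), a call lost with total counts, shared-peak scaling and DESeq2. These gains are of single regions. The 4 regions in the HDAC6 span had mean summed CPM of 119, 67.6 and 85.2 at 0, 6 and 72 h, with 2 higher and 2 lower at 72 h. The 3 in the SUV39H1 span had 49.3, 33.3 and 59.4 CPM, with 3 lower at 6 h and 2 higher at 72 h. A run of 4 weak regions between chrX:48713499 and chrX:48716279 (−72.8 to −70.6 kb), named after their values were seen, were all called higher at both times, with log2 fold changes of 2.19 to 2.89 at 72 h. Of all 32 H3K27ac regions in the window, 5 were higher and 19 lower at 6 h (32.3% and 26.3% of all tested regions were), 12 were higher and 16 lower at 72 h (background 43.4% and 38.1%), and 20 were higher and 2 lower at 72 against 6 h (background 33.1% and 30.8%). The split moved to 7 higher and 13 lower at 6 h with total counts, and to 14 higher and 6 lower at 72 against 0 h with shared-peak scaling. In the plot of H3K27ac by region, the gene and its upstream flank carry most of the falls.

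**Figure D1:**
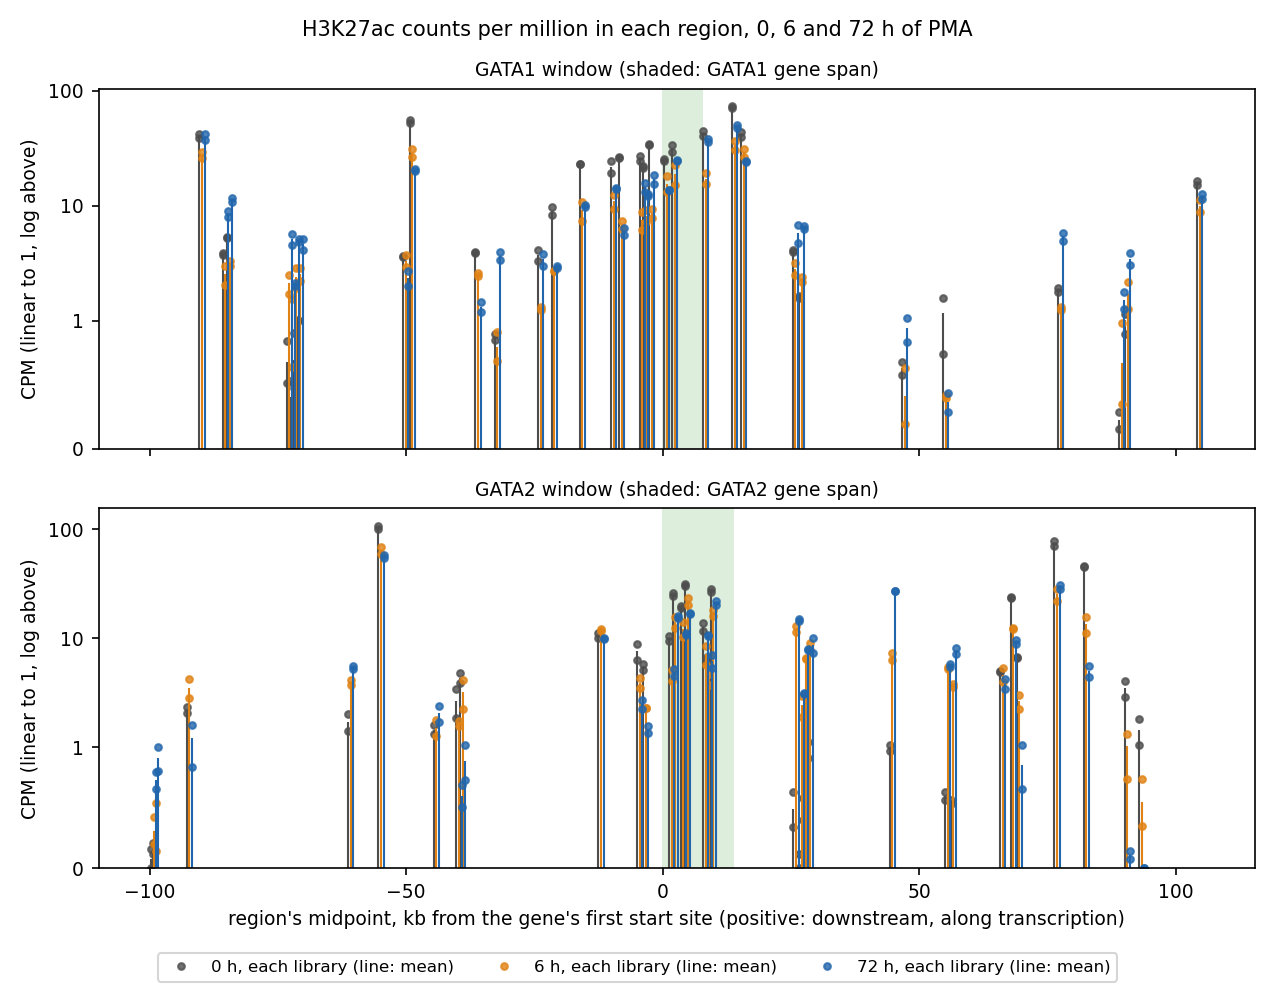
H3K27ac CPM (vertical axis, linear up to 1 and logarithmic above) of each of the 32 regions per window against the distance of its midpoint from the first start site in kb; points are the 2 libraries of each time, lines their mean, and times are set 0.5 kb apart for legibility. Just upstream of GATA1 the 6 h points lie lowest (7.84 and 9.45 CPM at −2.1 kb), and around GATA2 the region at 26.0 kb rises from 0.341 and 0.632 CPM to 14.5 and 15.2.

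GATA2 lost acetylation at 6 h and most of the loss stayed. Over the 9 H3K27ac regions within 10 kb of the gene, summed CPM were 144 and 147 untreated, 82.6 and 92.4 after 6 h, and 88.5 and 92.5 after 72 h. The 2 later times overlapped each other and lay below 0 h, with means of 145 ± 2.68 (SD, n = 2), 87.5 ± 6.92 and 90.5 ± 2.86 CPM. In edgeR's test all 9 were lower at 6 h and 7 at 72 h. Of all H3K27ac regions tested, 26.3% and 38.1% were called lower at these times. At 72 against 6 h, where 33.1% and 30.8% of all H3K27ac regions were higher and lower, 3 of the 9 were higher and 3 lower. These became 0 and 1 without replicate 1 at 6 h, 3 and 0 without replicate 1 at 72 h, 1 and 2 without replicate 2 at 72 h, 2 and 0 with DESeq2, and 4 and 0 with shared-peak scaling. With shared-peak scaling, 6 were lower at 6 h, and 4 were lower and 2 higher at 72 h.

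The 2 strongest H3K27ac regions within 10 kb of GATA2 took different courses. GATA2 is known to hold an intronic enhancer needed in blood stem cells, and whether a region below contains it was not determined. The region chr3:128482767-128483863 (9.9 kb) had 28.3 and 26.7 CPM untreated, 16.1 and 18.2 after 6 h, and 20.4 and 22.1 after 72 h. It was lowest at 6 h, and the 3 times did not overlap. The log2 fold change was −0.68 at 6 h (edgeR adjusted p = 3.59e-05) and −0.37 at 72 h (SE 0.115, adjusted p = 0.00469). The call at 72 h was lost without replicate 1 at 0 h (−0.33, adjusted p = 0.0508) or without replicate 1 at 72 h (−0.31, adjusted p = 0.0548), and it turned to 0.23 (adjusted p = 0.0475) with shared-peak scaling. At the second start, chr3:128487830-128488813 was lower at each later time, going from 30.3 and 31.7 CPM to 23.6 and 20.2 at 6 h and 16.7 and 17.1 at 72 h. No libraries of different times overlapped, and the log2 fold change at 72 h was −0.88 (SE 0.115, edgeR adjusted p = 1.77e-07), called under every alternative. The difference at 6 against 0 h (−0.51, adjusted p = 0.000651) was not called with total counts (−0.17, adjusted p = 0.189) or shared-peak scaling (−0.16, adjusted p = 0.244). The difference from 6 to 72 h (−0.37, adjusted p = 0.00945) was not called with DESeq2 or shared-peak scaling, nor without replicate 1 at 6 h (−0.26, adjusted p = 0.0889) or without replicate 1 at 72 h (−0.35, adjusted p = 0.0554).

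Farther from GATA2 the window changed in opposite directions on its downstream side. The 6 regions in the span of EEFSEC, which encodes the elongation factor for selenocysteine, had summed CPM of 153 and 157 untreated, 50.5 and 60.1 after 6 h, and 43.1 and 47.2 after 72 h. All 6 were called lower at 72 h, under every scaling and with any 1 library left out. Of all H3K27ac regions tested, 38.1% were called lower at 72 h. The steepest EEFSEC region that met the rule was chr3:128409969-128411297 (82.6 kb). It had 46.2 and 44.9 CPM untreated, 11.3 and 15.8 after 6 h, and 4.42 and 5.61 after 72 h. It fell at each step, by 3.18 on the log2 scale in all (SE 0.148, edgeR adjusted p = 3.52e-16). Next to it in the rule, chr3:128423502-128423837 fell by 2.96 (adjusted p = 7.82e-10). A weak EEFSEC region at chr3:128399623-128399882, named after its values were seen, had 52 counts at 0 h and 0 in both 72 h libraries, at least 26.1-fold lower against a floor of 3 counts over the group.

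Between EEFSEC and GATA2, acetylation appeared where there had been next to none. The 4 regions in the overlapping spans of DNAJB8, a chaperone gene, and its antisense gene DNAJB8-AS1 had summed CPM of 1.76 and 2.32 untreated, 29.0 and 30.3 after 6 h, and 32.8 and 36.3 after 72 h. Most of the rise was present at 6 h. The 72 h libraries lay above the 6 h ones, but none of the 4 regions was called between those times. Of all H3K27ac regions tested, 63.8% were. With shared-peak scaling, 2 of the 4 were called higher. The mean sum was 2.04 ± 0.395 (SD, n = 2) CPM at 0 h and 34.6 ± 2.54 at 72 h. Of the 4 regions, 1 had only 2 counts at 0 h, and none had a peak in both libraries then. No fold of the sum is therefore given. Over all H3K27ac regions tested, 32.3% were called higher at 6 h and 43.4% at 72 h. All 4 were called higher at both times under every alternative. The largest that met the rule, chr3:128466643-128467822 (26.0 kb), had 0.341 and 0.632 CPM untreated, 11.6 and 12.9 after 6 h, and 14.5 and 15.2 after 72 h, a log2 fold change of 4.90 (SE 0.249, edgeR adjusted p = 2.04e-15). At chr3:128447428-128449382 (44.8 kb), outside any gene span, the rise came in 2 steps. There the 0 h libraries had 0.965 and 1.05 CPM, the 6 h libraries 6.30 and 7.28, and the 72 h libraries 27.1 and 27.4. It rose by 2.75 on the log2 scale by 6 h (adjusted p = 1.46e-10) and by a further 1.99 by 72 h (adjusted p = 9.66e-12).

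The strongest H3K27ac region of either window lay upstream of GATA2 and was named after its values were seen. At chr3:128546433-128549868 (−54.9 kb), outside any gene span, the 0 h libraries had 109 and 101 CPM, the 6 h libraries 59.1 and 69.7, and the 72 h libraries 57.7 and 54.8. Both later times lay below 0 h (log2 fold change −0.89 at 72 h, SE 0.107, edgeR adjusted p = 3.5e-08). Over all 32 H3K27ac regions of the GATA2 window, 8 were higher and 15 lower at 6 h, 10 higher and 17 lower at 72 h, and 5 higher and 11 lower at 72 against 6 h. Among all tested H3K27ac regions, higher calls took 32.3%, 43.4% and 33.1% in the same order of comparisons. Lower calls took 26.3%, 38.1% and 30.8%. Counting either direction, the window had 71.9%, 84.4% and 50% called, beside a background of 58.6%, 81.5% and 63.8%. With total counts the splits were 10 and 12 at 6 h and 3 and 13 at 72 against 6 h, and with shared-peak scaling 14 and 13 at 72 h and 11 and 7 at 72 against 6 h. Of the called regions at 72 h, 23 of 27 around GATA2 and 17 of 28 around GATA1 were called in the same direction under every alternative.

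**Figure D2:**
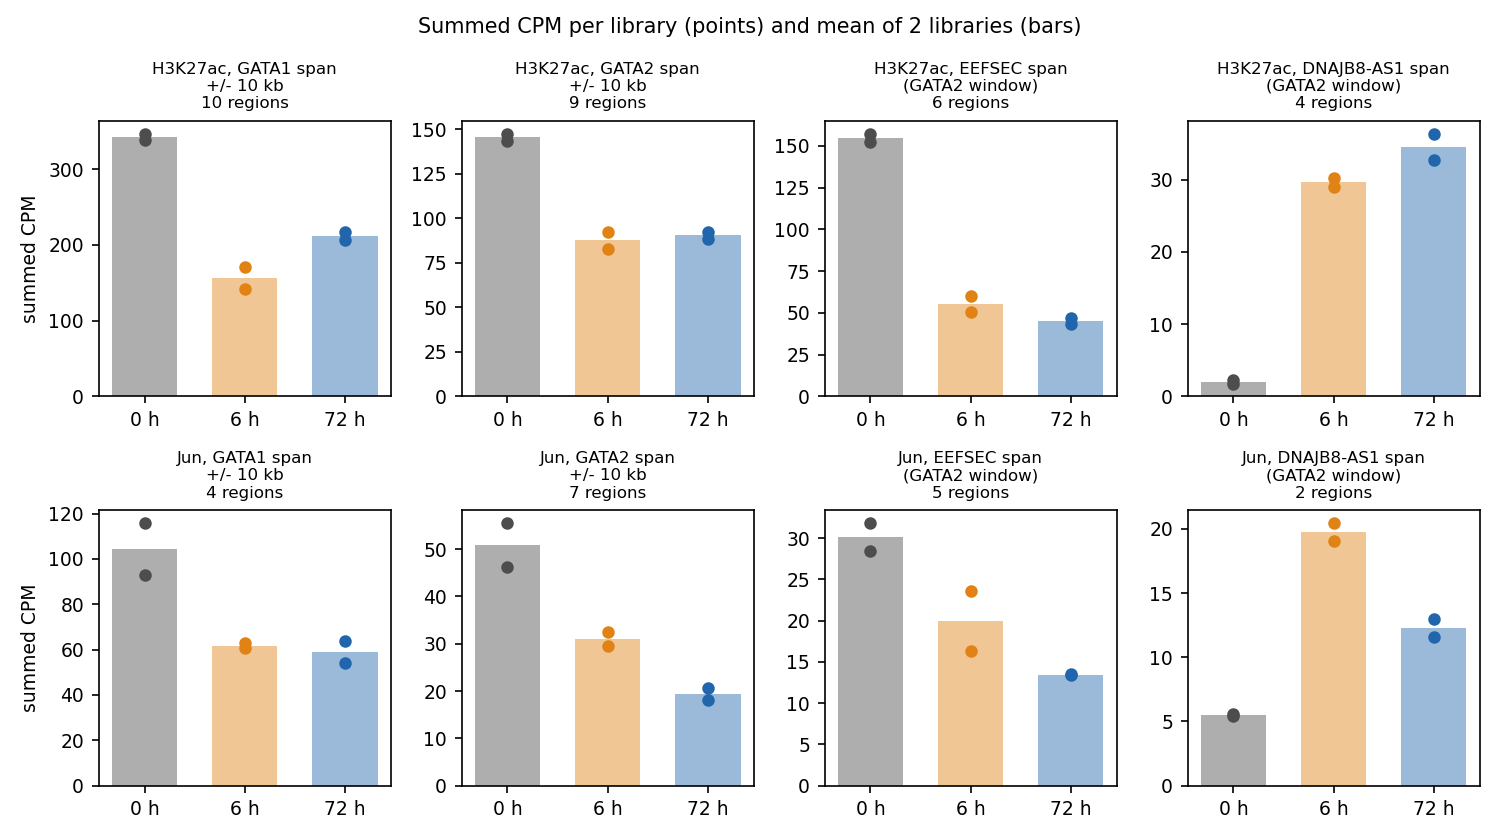
Summed CPM (vertical axis, from 0) of H3K27ac (top) and Jun (bottom) in 4 groups of regions at 0, 6 and 72 h; points are the 2 libraries and bars their mean. The GATA1 group, which includes regions in the HDAC6 span, dips at 6 h (342, 156 and 212 CPM of H3K27ac). For H3K27ac, GATA2 and EEFSEC stay low after 6 h, and DNAJB8-AS1 rises from 2.04 to 34.6 CPM.

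Of the 23 Jun regions around GATA1, 2 were higher and 5 lower at 6 h (13.1% and 12.2% of all Jun regions were, 25.3% in all), 4 higher and 2 lower at 72 h (background 28% and 25.7%, 53.7% in all), and 3 higher and 1 lower at 72 against 6 h (background 12.7% and 13.5%, 26.2% in all). The count at 6 h fell from 7 to 3 without replicate 2 at 0 h, and that at 72 against 6 h fell from 4 to 1 without replicate 2 at 6 h or without either 72 h library. The split at 6 h was 3 and 3 with shared-peak scaling, at 72 h 9 and 2, and at 72 against 6 h 9 and 0 (5 and 0 with total counts).

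The strongest Jun region of the GATA1 window was in the HDAC6 span, chrX:48800396-48803021 (15.1 kb). It had 58.0 and 73.8 CPM untreated, 37.9 and 38.7 after 6 h, and 29.0 and 23.9 after 72 h. The 3 times did not overlap, and Jun was lower at 72 than at 0 h (log2 fold change −1.32, SE 0.191, edgeR adjusted p = 7.86e-06). The fall at 6 h (−0.78, adjusted p = 0.00549) was not called without replicate 2 at 0 h. Beyond the 3′ end of GATA1, chrX:48794333-48795769 had 28.0 and 30.4 CPM untreated, 19.1 and 18.6 after 6 h, and 27.2 and 23.6 after 72 h. It was lower at 6 h (−0.63, adjusted p = 0.0237), a call lost without either 0 h library, and its value at 72 h was −0.20 (adjusted p = 0.352), or 0.59 with shared-peak scaling.

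Upstream of GATA1, 4 Jun regions were called higher at 72 h, and the 2 that met the rule are given here. At chrX:48714786-48715543 (−71.4 kb), among the weak acetylated regions that rose, the 0 h libraries had 3.94 and 4.44 CPM, the 6 h libraries 9.53 and 16.2, and the 72 h libraries 10.8 and 10.9. Jun there was higher by 6 h (log2 fold change 1.64, edgeR adjusted p = 0.000267) and stayed so at 72 h (1.37, SE 0.267, adjusted p = 0.000206). At chrX:48753895-48754808 (−32.2 kb) Jun had 2.63 and 2.44 CPM untreated, 2.04 and 1.46 after 6 h, and 7.61 and 7.43 after 72 h. This rise came after 6 h, with 1.57 at 72 against 0 h (SE 0.301, edgeR adjusted p = 0.000181). The H3K27ac region at the same place, chrX:48753990-48754840, named after its values were seen, was also higher at 72 h (2.05, adjusted p = 6e-06). Jun fell at chrX:48736992-48737660 (−49.3 kb), by 1.83 on the log2 scale at 72 h (adjusted p = 1.14e-06).

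Jun on GATA2 fell with time under the TMM factors, and the step from 6 to 72 h depended on the scaling. Over the 7 Jun regions within 10 kb of the gene, summed CPM were 46.2 and 55.5 untreated, 29.5 and 32.5 after 6 h, and 20.7 and 18.2 after 72 h. No libraries of different times overlapped, and 5 of 7 were called lower at 72 h, as were 25.7% of all Jun regions. With shared-peak scaling, 3 were lower and 2 higher at 72 h. At 72 against 6 h, where 13.5% of all Jun regions were called lower, 3 of the 7 were. This became 0 lower with total counts, 1 lower with DESeq2, and 0 lower and 1 higher with shared-peak scaling. Between the 2 starts, in the overlapping spans of GATA2 and its antisense gene GATA2-AS1, chr3:128488914-128489402 (4.0 kb) had 11.8 and 19.6 CPM untreated, 4.77 and 8.58 after 6 h, and 3.95 and 2.25 after 72 h. It fell by 2.35 on the log2 scale at 72 h (SE 0.296, edgeR adjusted p = 1.53e-06), a call made under every alternative. Deeper in the gene, chr3:128482776-128483581 (10.0 kb) had 18.4 and 20.2 CPM untreated, 17.5 and 14.4 after 6 h, and 8.89 and 9.30 after 72 h. Jun there was not called at 6 h (−0.28, adjusted p = 0.358) and was lower at 72 h (−1.08, SE 0.194, adjusted p = 8.75e-05, or −0.29 without a call with shared-peak scaling).

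Elsewhere in the GATA2 window Jun rose at some sites and fell at others. It rose at chr3:128436202-128436878 (56.7 kb), from 1.31 and 1.58 CPM to 3.63 and 4.74 at 6 h and 6.23 and 7.17 at 72 h (log2 fold change 2.21, edgeR adjusted p = 1.94e-05). Upstream, at chr3:128553771-128554435 (−60.9 kb), it rose from 0.875 and 2.01 CPM to 6.81 and 10.6 at 6 h and 5.47 and 8.15 at 72 h (2.23, adjusted p = 6.15e-05). The later libraries lay above the 0 h libraries at both sites. Jun fell at chr3:128412457-128412847 in the EEFSEC span, from 8.17 and 8.89 CPM to 1.14 and 2.01 at 6 h and 1.09 and 0.637 at 72 h (−3.30, adjusted p = 2.85e-07). Beneath the strong acetylated region at −54.9 kb, chr3:128547276-128548089, named after its values were seen, fell from 54.3 and 54.6 CPM to 25.4 and 28.5 at 6 h and 18.5 and 17.6 at 72 h (−1.59, adjusted p = 4.12e-07).

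Of the 31 Jun regions around GATA2, 5 were higher and 4 lower at 6 h, 7 higher and 12 lower at 72 h, and 1 higher and 6 lower at 72 against 6 h. Over all Jun regions, 13.1% were higher and 12.2% lower at 6 h, and 28% and 25.7% at 72 h. At 72 against 6 h these shares were 12.7% and 13.5%. Called in either direction were 29%, 61.3% and 22.6% around GATA2, against 25.3%, 53.7% and 26.2% of all Jun regions. The count at 72 h, 19, fell to 12 without replicate 1 at 72 h, and that at 72 against 6 h, 7, to 2 without replicate 2 at 6 h, 1 without replicate 1 at 72 h and 0 without replicate 2 at 72 h. Scaling turned the majority. With total counts 10 were higher and 6 lower at 72 h and 2 higher and 0 lower at 72 against 6 h, and with shared-peak scaling 13 and 5, and 6 and 0. Of the 19 regions called at 72 h, 9 were called in the same direction under every alternative.

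**Figure D3:**
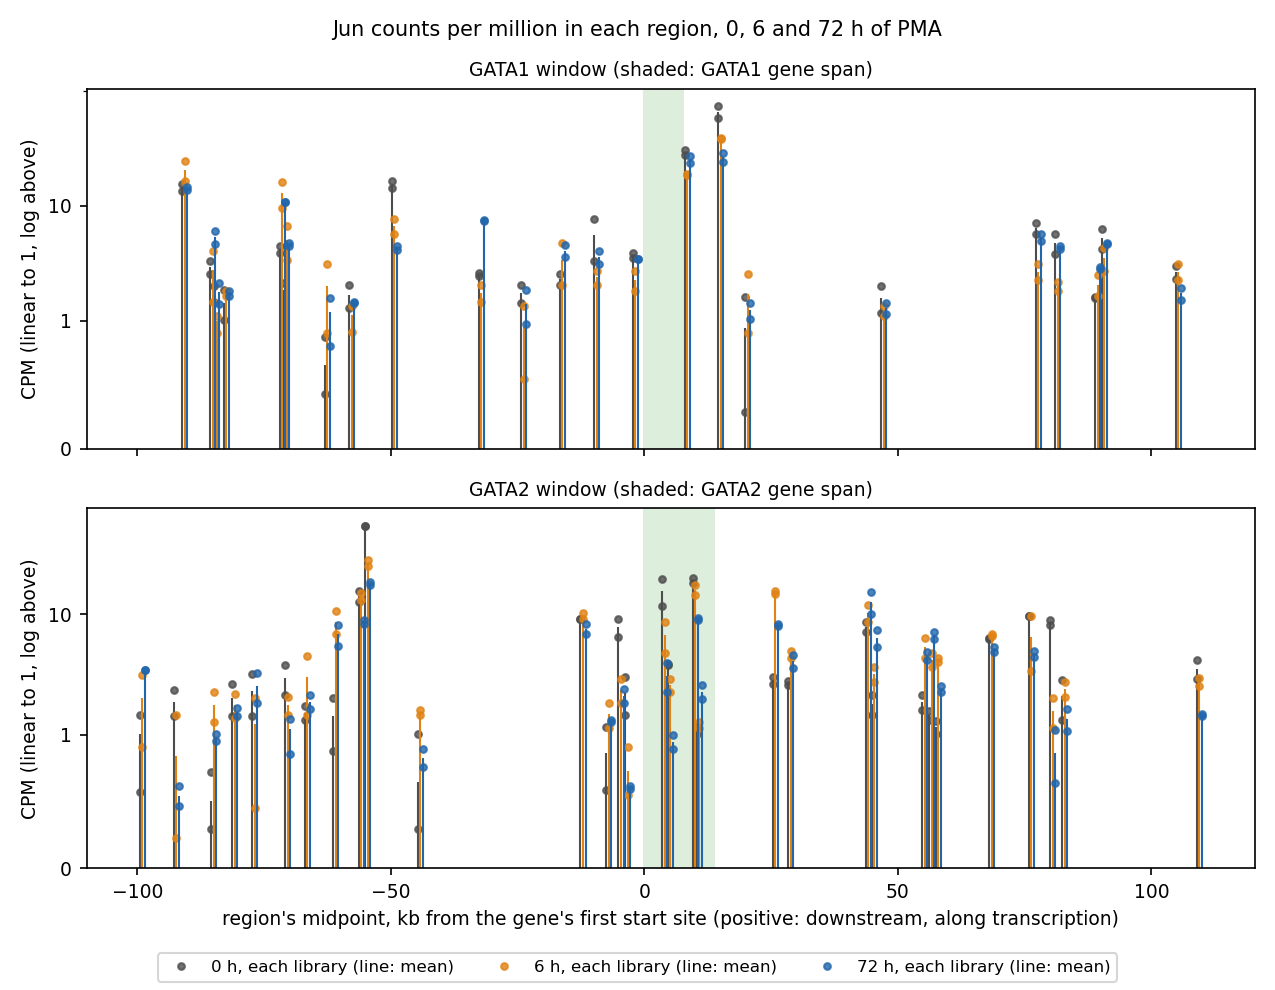
Jun CPM (vertical axis, linear up to 1 and logarithmic above) of the 23 regions around GATA1 and the 31 around GATA2 against the distance of the midpoint from the first start site in kb; points are the 2 libraries of each time and lines their mean. At 4.0 kb on GATA2 the 0 h points are highest (11.8 and 19.6 CPM), while at 56.7 kb the 72 h points are (6.23 and 7.17 CPM).

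At 72 h no overlapping calls of Jun and H3K27ac were opposite in either window, and opposite calls were few over all regions too. Around GATA1, 8 of 12 H3K27ac regions that were higher overlapped a Jun region, 5 of them a Jun region called higher and 0 one called lower. Around GATA2, 8 of 10 did, 7 of them higher. Of the regions that were lower, 7 of 16 around GATA1 and 10 of 17 around GATA2 overlapped a Jun region, with 3 and 8 lower and 0 higher. Where a Jun region overlapped neighbouring H3K27ac regions, as at chrX:48800396-48803021, it counts at each. The shares with Jun called the same way were 62.5% of higher and 42.9% of lower regions around GATA1, and 87.5% and 80% around GATA2. Over all H3K27ac regions, 59.5% of those higher with a Jun overlap had Jun higher alone, and 77.9% of those lower had Jun lower alone. Jun called only the opposite way made up 6.12% and 0.343%.

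CTCF was weak in both windows, and edgeR called no change. In the HDAC6 span, chrX:48801500-48802116 had 6.12 and 5.05 CPM untreated, 10.0 and 3.26 after 6 h, and 11.3 and 12.1 after 72 h, and its neighbour chrX:48800564-48801104 had 5.61 and 3.61, 3.56 and 1.63, and 9.22 and 6.46 CPM. At 72 h both libraries lay above those of 0 h at both sites, without a call (log2 fold change 1.05, adjusted p = 0.118, and 0.72, adjusted p = 0.325). The first was called higher with total counts (1.28, adjusted p = 0.0326), without replicate 1 at 6 h (adjusted p = 0.0384) and without replicate 2 at 6 h (adjusted p = 0.0366). At chrX:48891636-48892109 (105.3 kb) CTCF had 12.2 and 12.3 CPM untreated, 5.83 and 13.4 after 6 h, and 6.91 and 6.74 after 72 h (−0.84, adjusted p = 0.152). Around GATA2 the strongest sites, chr3:128497647-128498056 (−4.7 kb) and chr3:128426313-128426952 (66.6 kb), had log2 fold changes of −0.21 (0.13 with shared-peak scaling) and 0.03 at 72 h, with libraries between 6.46 and 10.0 CPM. At chr3:128503011-128503262 (−9.9 kb) the change was −0.72 (adjusted p = 0.417).

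Of the 6 tested CTCF regions around GATA1, 0 were called at any time, and 1, 3 and 2 had an unadjusted p under 0.05 at 6 against 0 h, 72 against 0 h and 72 against 6 h. Of the 10 around GATA2, 0 were called, with 0, 1 and 0 under 0.05 unadjusted, and DESeq2 called 0 in both windows. Of all CTCF regions, 2.65%, 6.79% and 2.18% were called in the 3 comparisons, of which the higher calls made up 2.33%, 4.07% and 0.449% of all regions and the lower calls 0.325%, 2.72% and 1.73%. Around GATA1 1 region was called at 72 against 0 h with total counts or without either 6 h library. Median counts per region ran from 14 to 46 per CTCF library.

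Rad21, profiled at 0 and 72 h, was strongest in the GATA1 window near 15 kb. There chrX:48801558-48802570 (15.5 kb) had 36.8 and 27.7 CPM at 0 h and 23.2 and 20.6 at 72 h, and chrX:48800332-48801130 (14.1 kb) 20.0 and 14.8, and 15.3 and 15.8 CPM. Neither was called (log2 fold change −0.56, edgeR adjusted p = 0.0947, and −0.17, adjusted p = 0.661). The first was called lower with total counts (−0.75, adjusted p = 0.0322), with the replicate block (−0.55, adjusted p = 0.0399) and without replicate 2 at 0 h (−0.75, adjusted p = 0.0192). Just upstream of the GATA1 start, chrX:48785686-48786108 (−0.7 kb) had 3.46 and 7.39 CPM at 0 h and 1.64 and 3.21 at 72 h (−1.16, adjusted p = 0.0885). In the SUV39H1 span chrX:48696218-48696785 (−90.1 kb) fell from 10.5 and 13.5 to 4.76 and 5.84 CPM (−1.18, SE 0.315, adjusted p = 0.00948), a call lost with DESeq2 and without replicate 1 at 72 h (−1.03, adjusted p = 0.0937).

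On GATA2, Rad21 at chr3:128483038-128483541 (9.9 kb) had 4.72 and 6.97 CPM at 0 h and 9.38 and 9.61 at 72 h. The later libraries were higher without a call (0.72, edgeR adjusted p = 0.11). Upstream of the gene, chr3:128497624-128498121 (−4.7 kb), at a CTCF region, had 5.82 and 7.81, then 4.32 and 3.21 CPM (−0.83, adjusted p = 0.115). At −54.5 kb, chr3:128547427-128547899 had 10.1 and 8.87, then 12.5 and 7.73 CPM, and the times overlapped. At chr3:128553939-128554269 (−60.9 kb), named after its values were seen, Rad21 rose from 0.944 and 0.844 to 5.21 and 5.28 CPM (2.52, SE 0.55, edgeR adjusted p = 0.00218). Jun and H3K27ac also rose there. The H3K27ac region, chr3:128553689-128554226 (1.66, adjusted p = 1.52e-06), was likewise named after its values were seen.

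Of the tested Rad21 regions, 1 of 19 was higher and 2 were lower around GATA1, and 2 of 20 were higher and 5 lower around GATA2, against 15.4% and 7.91% of all Rad21 regions (23.3% in all). DESeq2 called 0 around GATA1, where 10 had an unadjusted p under 0.05 in edgeR, and 1 higher and 1 lower around GATA2. Total counts gave 0 higher and 7 lower around GATA1 and 1 and 5 around GATA2. Leaving out replicate 2 at 0 h raised the count around GATA1 from 3 to 5, and leaving out replicate 1 at 72 h lowered that around GATA2 from 7 to 2. The plot of fold changes shows the 4 antibodies side by side.

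**Figure D4:**
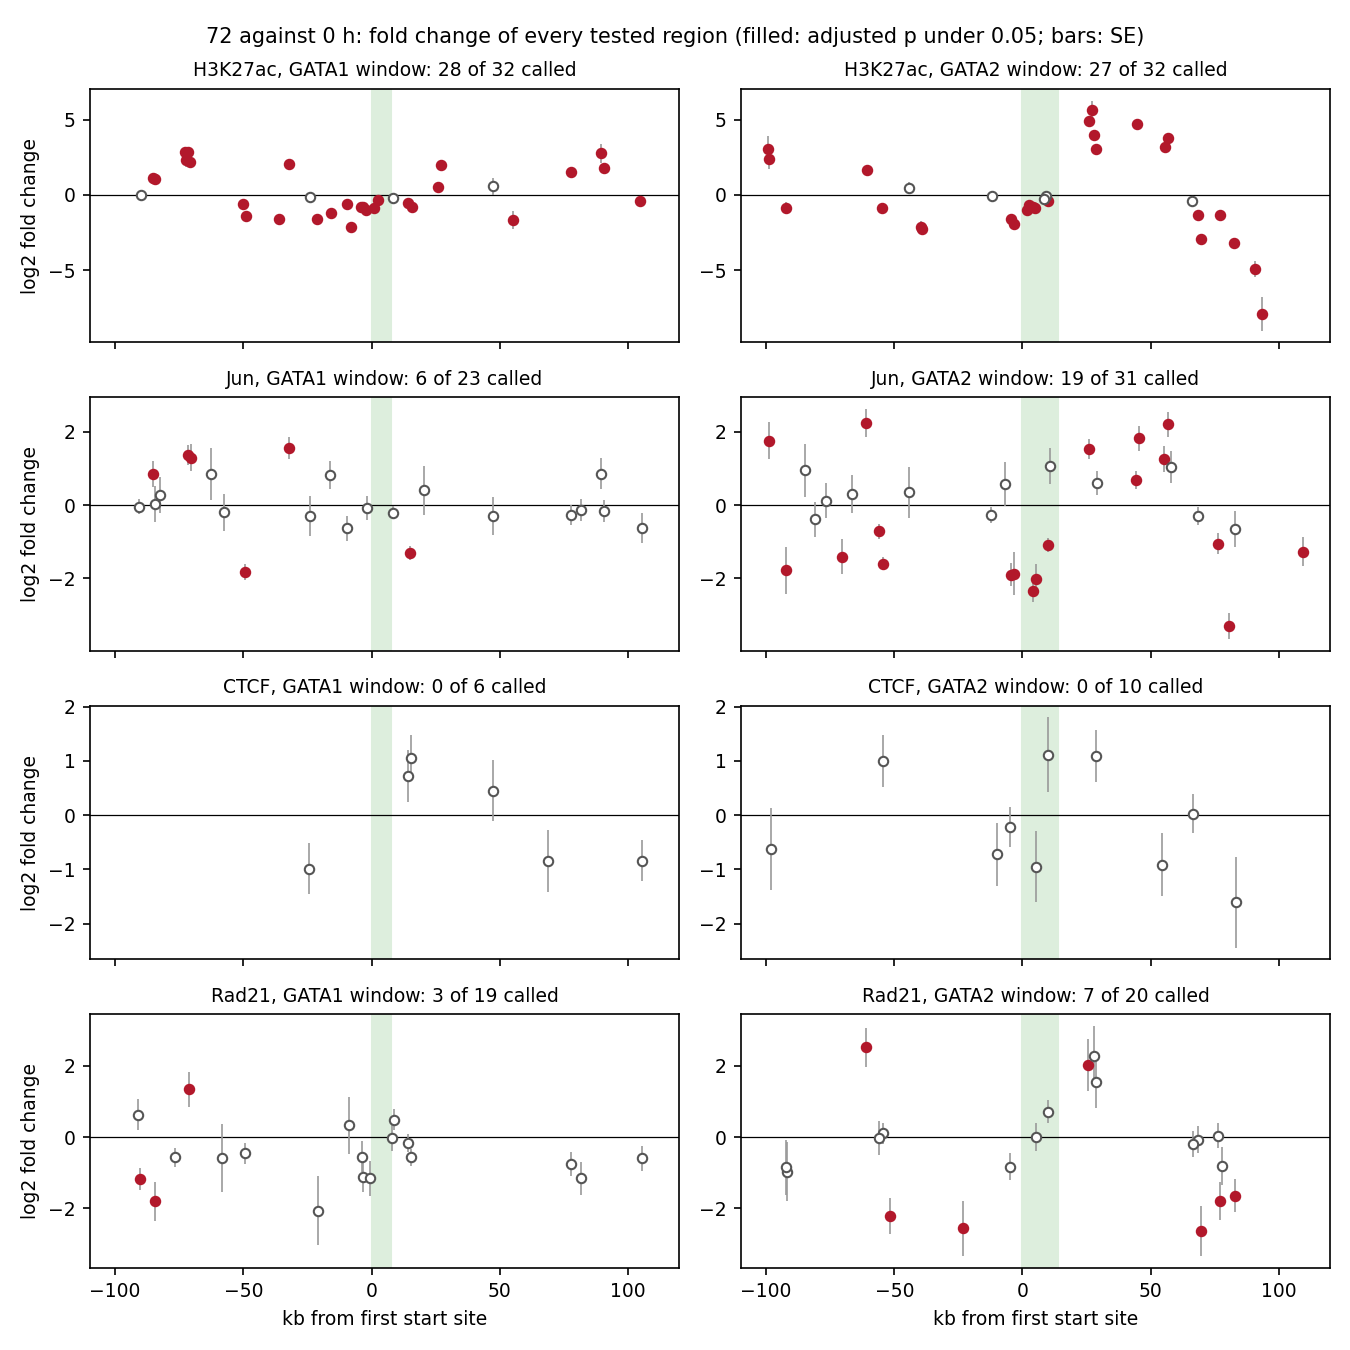
Log2 fold change at 72 against 0 h (vertical axis) of every tested region by distance of its midpoint from the first start site in kb, for 4 antibodies (rows) around GATA1 (left) and GATA2 (right); filled points have an edgeR adjusted p under 0.05, bars are SE, and the gene span is shaded. H3K27ac has 28 and 27 of 32 regions called, Jun 6 of 23 and 19 of 31, CTCF 0 in both, and Rad21 3 of 19 and 7 of 20.

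The deposited peaks were also counted where both libraries of a time had one. Of 32 H3K27ac regions around GATA1, 10 had a peak at 0 h, 5 at 6 h and 22 at 72 h, and around GATA2 11, 8 and 16. For Jun the counts were 5, 4 and 17 of 23 around GATA1 and 7, 5 and 16 of 31 around GATA2. The whole peak lists also grew by 72 h, so a rise in these counts cannot be taken as particular to these windows. The H3K27ac lists held 42125 and 42852 peaks untreated, 36947 and 39680 after 6 h, and 65267 and 66147 after 72 h. The Jun lists held 31637 and 35072 peaks untreated, 23946 and 35376 after 6 h, and 92329 and 99102 after 72 h. Depth changed too, with 17245043 and 18883962 counts after 72 h against 7952946 and 8600736 untreated for Jun. For H3K27ac it was 26216577 and 27266241 against 19963875 and 21772218, with 12634261 and 18775241 after 6 h. The part of depth in these changes was not tested. The GATA1 start region at 0.8 kb had no peak in both libraries at any time, and the GATA2 region at 9.9 kb had one at all 3.

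The proteins that work with GATA1 and GATA2, taken as a list of 12 genes, lost acetylation at their strongest regions too. At 6 h H3K27ac was lower at 11 of 12 and higher at 0, and at 72 h lower at 10 and higher at 1. Of all H3K27ac regions, 26.3% and 38.1% were called lower at these times. The median log2 fold changes of the list were −0.98 and −0.96, against 0.20 and 0.19 over all regions. Each gene's region was picked for the highest mean CPM among its own regions, which numbered from 1 at FLI1 to 40 at RUNX1. All regions were not picked so, and these counts and medians are a description and not a like comparison. With shared-peak scaling 10 were lower at 6 h and 7 at 72 h, where 2 were higher. Among complex members, the ZFPM1 (FOG1) region fell from 42.7 ± 1.3 (SD, n = 2) to 29.4 ± 1.14 and 21.0 ± 0.0113 CPM, and that of the bridging protein LDB1 from 83.6 ± 0.916 to 32.0 ± 0.282 and 16.6 ± 0.226. TAL1 went from 165 ± 3.4 to 93.8 ± 11.5 and 101 ± 5.47 CPM. LMO2 fell to 65.4 ± 5.31 CPM at 6 h and was back at 105 ± 8.49 at 72 h, from 102 ± 3.18.

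Among transcription factors that act beside them, RUNX1, a megakaryocyte and stem cell factor, had the strongest region, which fell from 251 ± 3.38 (SD, n = 2) to 67.6 ± 8.23 and 18.3 ± 0.768 CPM. That of KLF1, an erythroid factor, fell from 68.8 ± 0.16 to 12.6 ± 1.14 and 2.18 ± 0.369. LYL1 (103 ± 2.68, 26.4 ± 5.2 and 52.3 ± 1.79 CPM) and NFE2 (45.2 ± 0.973, 10.9 ± 1.7 and 23.5 ± 0.385 CPM) were lowest at 6 h and higher again at 72 h, the course seen at GATA1. GFI1B (41.89 ± 1.57, 19.1 ± 2.57 and 23.85 ± 0.463 CPM) was also lowest at 6 h. Its rise from 6 to 72 h was small (log2 fold change 0.31, edgeR adjusted p = 0.024). SPI1 and TCF3 were lower at both times. FLI1, a megakaryocyte factor, had a single weak region that was called higher at 72 h (0.079 ± 0.112 to 2.16 ± 0.292 CPM). For Jun, 7 of 12 strongest regions were lower and 0 higher at 6 h, and 9 lower and 0 higher at 72 h. Of all Jun regions, 12.2% and 25.7% were called lower at these times. The Jun regions of the list were picked in the same way, from as many as 45 at RUNX1, so this is no like comparison either. With shared-peak scaling, 6 and 4 of the 12 Jun regions were lower and 1 was higher at each time.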

How the data were processed

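Peaks and counts were used as deposited. Per the submitters' processing notes, the tools were Trim Galore 0.4.3, BWA 0.7.17, SAMtools 1.9, deepTools 3.0.1, MACS2 and bedtools 2.26, and the builds hg19 and hg38, with no role or order given. Region ends on chromosome 20 reach 64331078, and contig names are those of GRCh38, so GRCh38 was used. The deposited starts include 0, so 1 was added to each start.

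The 4 region tables hold the raw counts of reads that the authors deposited for every region, 1 column per library. They also hold the authors' deposited log2 fold changes and adjusted p-values, which were not used in any test. Each of the 22 deposited peak lists belongs to 1 library and gives the authors' fold enrichment (a ratio) and −log10 q-value per peak. A peak was counted at a region when it overlapped by at least 1 bp in both libraries of a time point.

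Each table was fitted whole in edgeR 4.0.16 (R 4.3.3), with filterByExpr, TMM factors and the quasi-likelihood test over all times. Benjamini-Hochberg adjusted p-values under 0.05 were called. CPM values are counts scaled to library size with the TMM factors. The standard error (SE) is |log2 fold change| over the square root of F. Alternatives were total counts scaling, shared-peak scaling (factors from the regions where all libraries of the antibody had a peak), DESeq2 1.42.0, no filter, the replicate number as a block, leaving out each library, peaks with −log10 q of at least 10, and an overlap of 50%. The script was tested on simulated counts.

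The members, lists and rules were chosen with earlier results of these data known. Regions were named for each gene and antibody if they lay within 1 kb of the gene start, had the 2 highest mean CPM within 10 kb of the gene, or, among called regions at 72 h with mean CPM at or above the table's median and non-overlapping libraries, had the 2 largest or 2 smallest fold changes. For CTCF and Rad21 the 2 highest mean CPM in the window were added. Other regions named were chosen after their values were seen, and the text says so. Promoter sequences came from a RefSeq table of GRCh38.p14. Part of the check of cell type markers is not reported here.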

Additional observations from a re-analysis of the deposited data

How the results depend on the processing

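In the text, 24 H3K27ac calls around GATA1 and 23 around GATA2 at 6 h, and 28 and 27 at 72 h, stayed within 1.5 times of these numbers under every alternative run. The Jun, CTCF and Rad21 counts did not all do so, and the cause was not tested. For Jun around GATA1, the 6 calls at 72 against 0 h became 11 with shared-peak scaling, and the 4 at 72 against 6 h became 9 with that scaling and 1 with DESeq2. For Jun around GATA2, the 7 calls at 72 against 6 h became 2 with total counts and 3 with DESeq2. For CTCF around GATA1, 0 calls became 1 with total counts at both 72 against 0 h and 72 against 6 h. For Rad21 around GATA1, 3 calls became 7 with total counts and 0 with DESeq2, and around GATA2 7 became 2 with DESeq2.

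With 1 library left out, the ranges around GATA1 were 3 to 7 (Jun, 6 against 0 h), 1 to 5 (Jun, 72 against 6 h), 0 to 1 (CTCF, 72 against 0 h and 72 against 6 h) and 2 to 5 (Rad21). Around GATA2 they were 12 to 20 (Jun, 72 against 0 h), 0 to 7 (Jun, 72 against 6 h) and 2 to 5 (Rad21). A condition left with 1 library was assumed to vary like the others.

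Shared-peak scaling turned the sign of 5 values, at regions the rule named, that were called with or without it, and of 5 others called in neither case. At 72 against 0 h they became 0.398 at chrX:48794204-48795862, 0.038 at chrX:48799676-48801637 and 0.232 at chr3:128482767-128483863 for H3K27ac, and 0.585 at chrX:48794333-48795769 for Jun. For Jun at chrX:48800396-48803021 the value at 72 against 6 h became 0.089.

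Same-numbered replicates deviated together little, with correlations from −0.00841 to 0.124, so the numbers were not taken to pair samples. The replicate block moved the Rad21 count around GATA1 from 3 to 5 and moved no other window count by over 1.5 times.

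Each group has 2 libraries, and CTCF and Rad21 regions are thinly covered. In simulated data with 200 regions changed by 4-fold, the fit at 72 against 0 h recovered 171 with the H3K27ac table, 162 with that of Jun and 140 each with those of CTCF and Rad21.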

Other observations

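The authors' deposited table gives every region a label for its course. In the 2 windows it labelled 18 H3K27ac regions as up and 0 as down, and 7 of those 18 had a 72 h log2 fold change below 0 in the authors' deposited table. For Jun it labelled 4 as up, 2 of them with a value below 0. Over all H3K27ac regions, the value was above 0 at 72.8% of those labelled upLate, 71.4% of downEarly and 73.3% of downLate ones. For Jun these shares were 49.4%, 48.8% and 50.3%. Labels and signs that differ are thus not particular to these windows. The sign of the 72 h value in the authors' deposited table matched that of the edgeR fit at 63 of 64 H3K27ac, 53 of 54 Jun, 16 of 16 CTCF and 36 of 39 Rad21 regions.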
